A study of Canis lupus familiaris with 2 samples.

Results

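Stretches of the dog genome that are rich in CpG and highly methylated were examined in the MDCK line, which derives from dog kidney epithelium. A stretch was a fixed window of 1000 bp on chromosomes 1 to 38. It was CpG-dense when 40 or more CpG sites were listed in it and 10 or more of them had at least 5 calls in each library. It was highly methylated when the mean of its site levels in the control library was 80% or more. Of 2164663 windows with a listed site, 80682 were CpG-dense, and 31960 of these (39.6%) were highly methylated. These 31960 members cover 31.96 Mb and hold 1773634 of the 21087931 autosomal sites with enough calls, 8.41% of them. A further 555 windows with 40 or more listed sites had too few covered sites and were left out.

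The control culture was untreated and stayed in culture for 30 days, in parallel with a culture that received TGF-beta at 5 ng/ml. The labels call the first epithelial and the second mesenchymal, and each group is 1 library of bisulfite-converted genomic DNA. All differences below therefore compare 2 libraries, with no replicate check, and windows are not replicates of a condition. The control file held 656122583 calls and the TGF-beta file 1019766599. Positions are in canFam3, no sequence or gene annotation of that build was used, and so windows are given by position only. Intervals beside summed levels are exact 95% binomial intervals of summed calls and cover counting error only.

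DNA methylation in vertebrates sits mostly on the cytosine of CpG, and bisulfite sequencing reads a methylated (or hydroxymethylated) cytosine as C and an unmethylated one as T. Most of the genome is methylated and poor in CpG, because methylated cytosines mutate to thymine over evolution. CpG islands, the dense stretches at many gene starts, are typically unmethylated, while dense stretches inside genes and between them are often methylated. After replication the methyltransferase DNMT1, guided by UHRF1, copies methylation to the new strand. TGF-beta is a secreted signal that can turn epithelial cells into motile, mesenchymal ones.

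Methylation in the members was high in both libraries. In the control, whose level chose the windows, the median was 90.1% (quartiles 84.7% and 93.8%), and 16135 members were at 90% or more. In the TGF-beta library, whose coverage but not its levels entered the choice, the median was 90.6% (quartiles 85% and 94.2%, lowest 58.8%, highest 99.1%). There 16866 members were at 90% or more, 1967 (6.15%) lay under 80%, 20 under 70% and 2 under 60%. In the other direction, 2677 CpG-dense windows reached 80% in the TGF-beta library without having done so in the control. Members carried a median of 55 listed sites, with 1071 calls per window in the control and 2454 with TGF-beta.

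**Figure D1:**
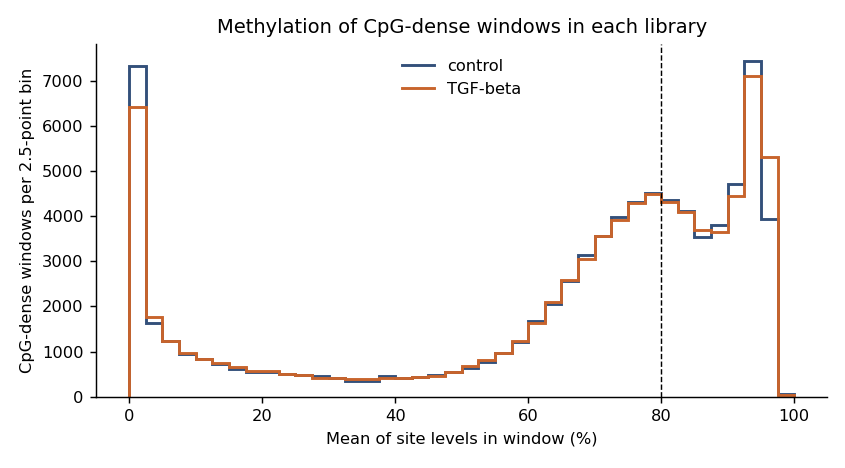
Number of CpG-dense windows (vertical axis) by the mean of their site levels in percent (horizontal axis, bins of 2.5 points), for the control and the TGF-beta library; the dashed line marks the 80% threshold. Besides the windows near 0%, the control has a broad peak at 77.5% to 80% (4519 windows) and a higher one at 92.5% to 95% (7440), with fewer windows at 85% to 87.5% (3539). At 95% to 97.5% the libraries differ, with 3929 windows in the control and 5313 with TGF-beta.

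The threshold lies beside the lower of these peaks, with no gap at 80%. The member just inside it, on chromosome 17 at 39001 to 40000, had a control level of 80.0002% and a TGF-beta level of 84.6%. The next, on chromosome 1 at 69209001 to 69210000, had 80.0019% and 80.3%. Just outside lay windows on chromosome 25 at 49816001 to 49817000, with 79.9998% and 79.1%, and on chromosome 15 at 12262001 to 12263000, with 79.9989% and 80.1%.

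The share of highly methylated windows changed with CpG density, which the rule used only as a minimum. With 40 to 49 listed sites, 41.1% of 28111 CpG-dense windows were members and 6.37% were under 20% in the control. With 60 to 79 listed sites these shares were 42.5% and 18.6%. With 120 or more they were 18.4% and 60.7%, so that unmethylated windows outnumbered members there, 1349 against 408. The middle class, 20% to 80%, fell from 52.5% of the sparsest windows to 21.0% of the densest. Among members, the level in the TGF-beta library differed little with density, from a median of 91.2% at 40 to 49 sites to 89.7% at 120 or more.

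The densest members are at 80% or more in the control by the rule, and their levels are given as a description. On chromosome 6 at 2564001 to 2565000, 182 sites were listed, the largest number among members, and the summed level was 90.1% (88.7 to 91.3, 2155 calls) in the control and 91.2% (90.3 to 92.1, 3824 calls) with TGF-beta. A window on chromosome 3 at 62634001 to 62635000 with 177 listed sites was at 86.9% (85.4 to 88.3) and 89.6% (88.7 to 90.5). With TGF-beta, the mean over CpG-poorer windows within 5 kb was 41.8% around the first and 41.7% around the second, far below the windows themselves. The other 3 of the 5 densest, with 175 or 176 listed sites, lay on chromosomes 3, 1 and 9, at site means of 82.8%, 88.5% and 81.5% in the control and 87.3%, 89.6% and 83.6% with TGF-beta.

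Members lay disproportionately near the chromosome ends. The last 3 Mb of the 38 autosomes held 5.18% of all windows and 30.3% of the members, 86.5 members per 1000 windows. The first 3 Mb held 5.15% of all windows and 13.4% of the members, 38.4 per 1000 windows. More than 10 Mb from either end there were 7.91 per 1000. Dog autosomes carry the centromere at one end, so the first and last stretches are different kinds of chromosome end. The last 3 Mb also held 25.6% of the CpG-dense windows at 20% to 80%, and 6.62% of those under 20%. Within CpG-dense windows, members made up 49.6% in the last 3 Mb, 46.8% in the first 3 Mb and 32.8% in the rest, while windows under 20% made up 4.70%, 9.66% and 25.6%.

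**Figure D2:**
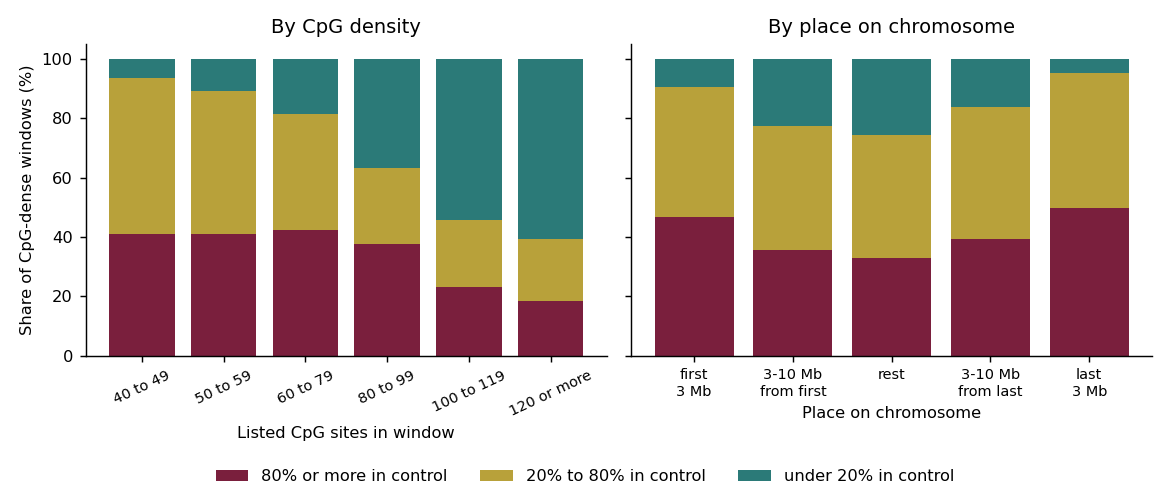
Share of CpG-dense windows in percent (vertical axis) at 80% or more, at 20% to 80% and under 20% in the control, by the number of listed CpG sites (left) and by place on the chromosome (right). Unmethylated windows rise from 6.37% to 60.7% with density, and members rise from 32.8% in chromosome interiors to 49.6% in the last 3 Mb.

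Chromosomes differed in how many of their CpG-dense windows were highly methylated. The share was 59.7% on chromosome 31 (1303 of 2183), 56.1% on chromosome 33 and 51.6% on chromosome 25, against 21.7% on chromosome 32 (90 of 414) and a median of 40.4% over the autosomes. Chromosome 31 held 32.7 members per Mb and chromosome 32 held 2.32.

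Most members lay beside another CpG-dense window, and many beside another member. Of the 31960, 18047 (56.5%) had an adjacent member, 6642 (20.8%) an adjacent CpG-dense window at 20% to 80% and 521 (1.63%) one under 20%, while 9266 had no CpG-dense neighbour. Joined where adjacent, they formed 19827 stretches, of which 13913 were a single window, 740 had at least 5 windows and 133 at least 10. The longest, of 44 windows, lay on chromosome 16 from 54333001 to 54377000 and held 3080 listed sites. Its summed level was 92.8% (92.6 to 93.0, 63311 calls) in the control and 93.0% (92.8 to 93.1, 168592 calls) with TGF-beta, and its lowest window was at 87.9% and 85.2%.

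The next longest stretches were similarly high, with single windows down to 81.8% in the control. A stretch of 42 windows on chromosome 38 from 23525001 to 23567000 was at 93.3% in the control and 93.7% with TGF-beta. One of 33 windows on chromosome 28 from 40513001 to 40546000 was at 91.6% and 92.6%. One of 29 windows on chromosome 31 from 39652001 to 39681000 was at 94.7% and 95.6%, and there the lowest single window was at 91.8% in the control and 93.5% with TGF-beta. The fifth, of 27 windows on chromosome 18 from 1970001 to 1997000, was at 91.2% and 92.6%. In all 5 stretches the TGF-beta library was the higher one by summed calls. On chromosomes 16 and 38 the intervals of the libraries overlapped.

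The CpG-poorer DNA around members, whose level the rule did not use, was mostly less methylated than the members themselves. Windows with under 40 listed sites within 5 kb had a median of 81.7% (quartiles 69.3% and 90.4%) in the control and 82.1% with TGF-beta. The member exceeded the mean of its own flanks in the TGF-beta library in 87.3% of 30198 cases, and the median excess was 7.33 points. In the same library, CpG-dense windows at 20% to 80% had a median excess of 7.60 points over their flanks and exceeded them in 66.0%. The median excess was thus no larger in members there, with quartiles of 1.87 and 16.8 points against -6.46 and 18.2 points. In the control, the median excess was 7.66 points in members and 6.76 points in the middle class. The rule set the members' own control level high. Around CpG-dense windows at 20% to 80% the flanks had a median of 62.1% in each library, and around those under 20% 79.0% in the control and 80.2% with TGF-beta. The median changed little with distance around members: the neighbour at 1 window was at 86.9% in the control and the tenth at 84.4%. The lower quartile fell further, from 74.15% to 66.2%. Around unmethylated windows the median rose from 63.9% at 1 window to 87.8% at 2.

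**Figure D3:**
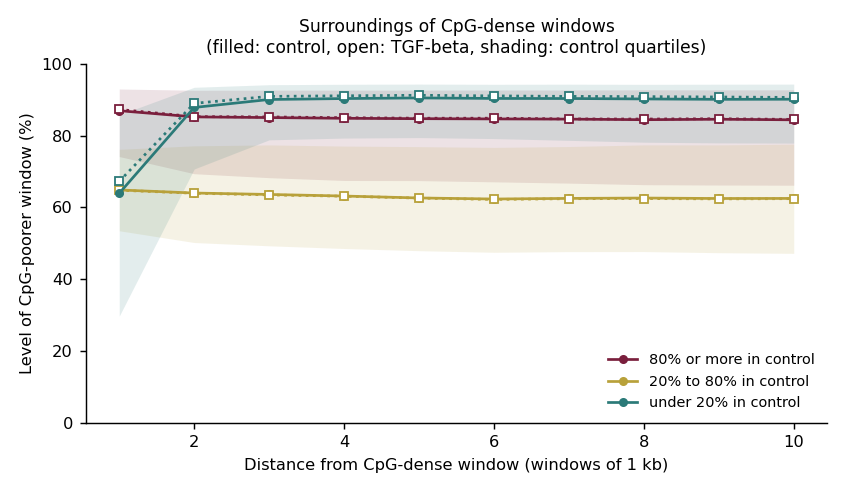
Median level in percent (vertical axis) of windows with under 40 listed sites at 1 to 10 windows of 1000 bp from a CpG-dense window (horizontal axis), with filled circles and solid lines for the control, open squares and dotted lines for TGF-beta, and shading for the control quartiles. Surroundings of members stay between 84.4% and 86.9% in the control, those of windows at 20% to 80% between 62.3% and 64.9%, and those of unmethylated windows rise from 63.9% to about 90%.

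A minority of members stood in low surroundings. In the TGF-beta library the flanks of 3885 members (12.9%) were under 60%. The 479 members with flanks under 40% had a median of 84.1% with TGF-beta, and the 16628 with flanks of 80% or more had 93.5%. Wider surroundings showed the same order. In 100 kb domains whose CpG-poorer windows averaged under 50% in the control, 19.6% of CpG-dense windows were members and 79.1% were at 20% to 80%. In domains at 80% or more, 54.8% were members and 27.0% were under 20%. The median control level of members was 83.8% in the lowest of these domain classes and 92.8% in the highest.

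Sharp borders to unmethylated DNA were rare between adjacent windows of the grid, and borders inside a window were not counted. Of 31869 members with an adjacent window of at least 5 covered sites, 722 (2.27%) had one under 20%. Only 510 members had an adjacent CpG-dense window under 20% with at least 20 covered sites, and the median step between the 2 windows was 81.4 points in the control and 80.4 points with TGF-beta. In 427 of the 510 (83.7%) the member was still at 80% or more and the neighbour still under 20% with TGF-beta. The largest step, of 96.6 points, was on chromosome 4, between the member at 86851001 to 86852000 and the window that starts at 86852001. With TGF-beta these windows were at 96.3% and 1.89%. On chromosome 1, the member at 122036001 to 122037000 was at 96.2% in the control and its neighbour with 129 covered sites at 0.421%. In the TGF-beta library they were at 95.6% and 2.75%. The other 3 of the 5 largest steps, on chromosomes 12, 20 and 19, were between 95.3 and 96.5 points in the control.

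Sites within members were mostly high, with a small set of low ones, part of which were low in both libraries. In the TGF-beta library 86.0% of covered member sites were at 80% or more and 1.16% under 20%, against 85.3% and 0.935% in the control. Over sites that each library covered with at least 10 calls, and with each site's calls reduced to 10 by calculation, the shares at 80% or more were 88.2% in the TGF-beta library and 88.1% in the control, and those under 20% were 0.986% and 0.727%. The counts that follow use all calls of those sites, so depth differs between the libraries. By all calls, 11981 of the sites were under 20% in the control. Among the 11981, 8472 (70.7%) were also under 20% in the TGF-beta library and 50 (0.417%) were at 80% or more there. Conversely, 15311 sites were under 20% with TGF-beta, and the same 8472 were 55.3% of them. Of 1320195 sites at 80% or more in the control, 166 (0.0126%) were under 20% with TGF-beta.

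Sites low on 1 DNA strand and high on the other in both libraries were nearly absent. Sites low on 1 strand with a middle level on the other were not counted. Of 1064559 member sites with at least 5 calls on each strand in each library, 3528 (0.331%) were under 20% on both strands in both libraries, and they lay in 2822 members. Only 3 sites were under 20% on one strand and at 80% or more on the other in both libraries. All 4 values were at 80% or more at 73.2% of the sites. Over whole windows the strands differed by a median of 1.80 points in the control and 1.28 points with TGF-beta, without regard to sign. They differed by 20 points or more in 4 of 29202 members in the control and in 1 with TGF-beta.

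Crowding of CpGs went with higher levels at single sites. Member sites whose nearest listed CpG was 2 bp away averaged 92.9% in the control and 93.5% with TGF-beta. Sites with the nearest CpG at 9 to 16 bp averaged 88.1% in both, and those with none within 32 bp averaged 79.4% and 78.9%. The share of sites under 20% in the TGF-beta library was 0.512% in the first group and 5.41% in the last. The order held within windows: relative to the mean of their own window, sites in the first group were higher by 3.93 points in the control and 4.28 points with TGF-beta, and those in the last differed by -10.1 and -10.6 points. CpG-dense windows at 20% to 80% showed the same order, from 70.5% to 48.6% with TGF-beta. In windows under 20% it was turned around, from 3.43% at 2 bp to 29.8% with no CpG within 32 bp.

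Spacing of CpGs in members was close to that of the middle class and looser than in unmethylated windows. Successive listed sites lay a median of 10 bp apart in members and at 20% to 80%, and 7 bp apart under 20%. A distance of 2 bp, the shortest possible, made up 7.48% of the distances in members, 7.83% in the middle class and more in unmethylated windows, where 33.2% of distances were 4 bp or less against 21.2% in members. Regular spacing was rare. For each window the lag between 10 and 300 bp was found at which the largest share of sites met another site, counting lags with at least 15 sites that could. That share was a median of 17.6% in members, and it reached 70% in 11 members, 4 windows of the middle class and 1 unmethylated window.

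The most regular member, on chromosome 15 at 40546001 to 40547000, repeated its CpG spacing fully at a lag of 32 bp, with 22 of its 62 listed sites covered, and the next window repeated it at 128 bp for 81.5% of its sites. Their site means were 93.9% and 92.8% in the control and 89.5% and 87.3% with TGF-beta. On chromosome 2 at 25519001 to 25520000, with 131 listed sites, spacing repeated at 150 bp for 86.2% of sites, at 80.2% in the control and 84.9% with TGF-beta. The others were on chromosome 36 at 490001, with a lag of 24 bp, and on chromosome 30 at 5915001, with a lag of 15 bp. Such windows had few covered sites on both strands, at most 23 in these 5.

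Depth in members was 2.23 times as high in the TGF-beta library as in the control by summed calls, with 83875432 against 37582685. The ratio was 2.25 in CpG-dense windows at 20% to 80% and 2.24 under 20%. The median ratio per window was 2.29 in members and 1.74 over all windows with at least 10 covered sites, so the gap in depth was wider in members than in windows at large. In members the ratio of summed calls ranged from 1.59 to 2.72 over the chromosomes. By density it was 2.16 in members with 40 to 49 listed sites and 2.32 with 120 or more. The control levels are therefore the less precise ones, with a median of 19.5 calls per covered site against 45.5.

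The comparison of the libraries asks whether these windows changed when the cells had been with TGF-beta for 30 days. As a set they stayed close. The difference, TGF-beta minus control, had a median of 0.219 points (quartiles -1.13 and 1.47) by the mean of site levels, against 0.896 points in CpG-dense windows at 20% to 80% and 0.569 points in those under 20%. It was above 0 in 54.7% of members, against 59.8% and 76.0% in the other classes. Members differed by 5 points or more in 5.66%, the middle class in 21.6% and unmethylated windows in 8.07%. Scatter between the strands differed among these classes too, as given below. The members' median was positive on 30 chromosomes and negative on 8, from -0.687 points on chromosome 19 to 0.643 points.

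Choice by the control level can by itself shift that difference, so windows were also chosen on the plus strand and compared on the minus strand, which other reads cover. The 33620 CpG-dense windows at 80% or more on the plus strand of the control had a median of 90.4% on the minus strand of the control and 90.9% on that of the TGF-beta library. The median of their differences was 0.197 points (quartiles -1.64 and 2.11). It was 0.240 points for windows at 80% to 85% and 0.243 points for those at 95% or more. On the plus strand itself the median was -0.0174 points. Of these windows, 53.0% were higher with TGF-beta on the minus strand. Among windows chosen likewise at 20% to 80% and under 20%, the shares were 56.6% and 66.7%. In members, the mean of the library differences on both strands reached 5 points in 1976 of 29202, against 616 for the half-difference of the strands, which holds no change that the strands share. In CpG-dense windows at 20% to 80% these counts were 7491 and 2896 of 28878. In those under 20% they were 1095 and 207 of 11046.

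Few members differed by a large amount. A window was called when its mean of site levels differed by 20 points or more, and Fisher's exact test on summed calls gave an adjusted p under 0.05 over all 1374041 windows with at least 5 covered sites. In this comparison 4 members (0.0125%) were called lower, against 0.591% of all windows, 0.0517% of CpG-dense windows at 20% to 80% and 0.489% of CpG-poorer windows at 80% or more. Called higher were 0 members, against 1.1% of all windows, 0.442% of the middle class and 0 of the CpG-poorer windows at 80% or more. The members' counts are a description, since the rule chose on the control level and a window at 80% can gain 20 points at most. With a size of 10 points, 72 members (0.225%) were called lower and 20 (0.0626%) higher, against 3.38% and 4.47% of all windows. The middle class had 0.485% and 3.56%, and CpG-poorer windows at 80% or more had 2.33% and 0.624%. On the minus strand alone, where the choice was made on the plus strand, 168 of 33620 (0.5%) were called lower by 10 points and 242 (0.72%) higher, against 2.49% and 3.5% of 577496 windows.

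Among all windows at 80% or more in the control with at least 10 covered sites, differences of 10 points in either direction were rarer where more sites were listed. With 10 to 14 listed sites, 2.59% of 119700 were lower by 10 points or more. The share was 1.51% with 20 to 29 listed sites, 0.368% with 40 to 59 and 0.101% with 60 or more. Windows higher by 10 points or more made up 0.509%, 0.184%, 0.0788% and 0.0619% of these classes. Calls moved with density too, from a median of 325 control calls per window in the first class to 1250 in the last. Where only windows with at least 10 sites covered on both strands were counted, and each strand had to be lower by 10 points, the shares were 1.09%, 0.778%, 0.226% and 0.109%. With each strand higher by 10 points, the shares were 0.109%, 0.161%, 0.0927% and 0.0335%. Those gains were thus not rarer at 20 to 29 listed sites than at 10 to 14. The median half-difference of the strands, a measure of scatter, was 1.54 points in the first class and 1.06 points in the last. The part of depth and of the number of sites in this order was not tested.

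In each of the 4 members called lower by 20 points, most of the sites lower by at least 30 points formed 1 unbroken run of covered sites, of 12 to 17 sites. By summed calls, 1 of the 4 differed by 20 points or more, the window on chromosome 2 at 80879001 to 80880000. Its loss was the largest, with site means of 93.5% in the control and 67.7% with TGF-beta. Its summed levels were 94.1% (92.6 to 95.4, 1168 calls) and 73.1% (71.3 to 74.8, 2612 calls). Of its 40 covered sites, 13 were lower by at least 30 points, and they lay between bases 375 and 784 of the window with 1 other covered site among them. Their median was 95.7% in the control and 9.09% with TGF-beta, while the rest had medians of 93.5% and 95.4%. The strands showed it alike, at -32.3 points on the plus and -32.1 points on the minus strand.

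The window on chromosome 38 at 22052001 to 22053000 had summed levels of 86.1% (83.9 to 88.2, 1018 calls) and 75.7% (73.8 to 77.6, 2012 calls). By site means the drop was from 85.3% to 62.9%. There 17 of 43 sites were lower by at least 30 points, between bases 504 and 880 with no other covered site among them, at medians of 90% in the control and 30.8% with TGF-beta. On chromosome 10 at 19810001 to 19811000 the site mean was 81.3% in the control and 59.3% with TGF-beta, with 13 sites under 20% in the TGF-beta library and 0 in the control. Of the 19 sites lower by at least 30 points, 14 were consecutive covered sites between bases 450 and 711, with medians of 60.4% and 4.40%. The control was thus already lower in that run than in the window as a whole, and the other 5 sites lay apart.

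The other called window, on chromosome 24 at 42144001 to 42145000, fell outside the naming rule because the minus strand was lower by less than 10 points, and it was named after its values were seen. Its site mean was 83.8% in the control and 58.8% with TGF-beta, over sites covered on either strand. The 16 sites lower by at least 30 points lay between bases 122 and 338, at medians of 89.5% and 23.4%, and the other sites were at 89.6% and 92.3%. Over its 27 sites covered on both strands the difference was -10.4 points on the plus and -9.48 points on the minus strand, less than over all 42 covered sites. The flanks within 5 kb went from 91.6% to 89.2% around the window on chromosome 2 and from 76.9% to 79.5% on chromosome 24. Those on chromosome 38 went from 62.2% to 61.6%, and chromosome 10 had 84.2% and 83.9%. Flank differences were thus far smaller than those of the windows, and lower in 3 of the 4.

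**Figure D4:**
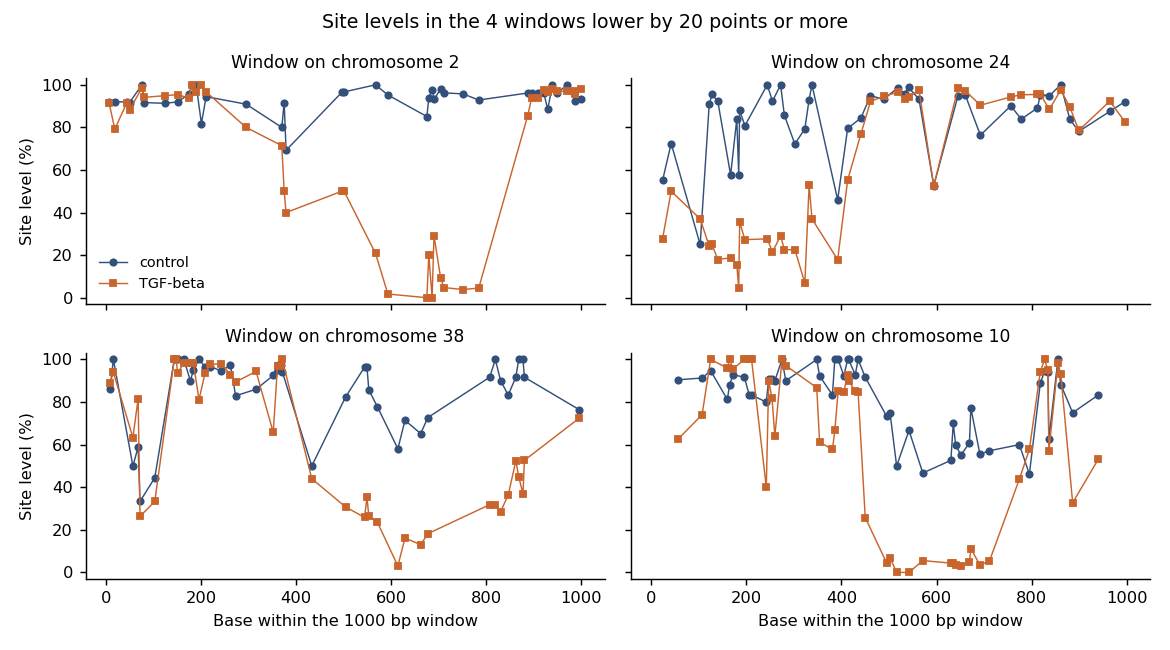
Level of each covered CpG site in percent (vertical axis) by its base within the 1000 bp window (horizontal axis) in the 4 members called lower by 20 points, for the control (circles) and the TGF-beta library (squares). In each window a run of neighbouring sites lies far below the control, as between bases 450 and 711 on chromosome 10, where 5 further sites outside the run are lower by at least 30 points.

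Smaller losses completed the 5 largest under the naming rule. On chromosome 5 at 58002001 to 58003000 the site mean was 81.8% in the control and 62.6% with TGF-beta, at -12.9 points on the plus and -16.6 points on the minus strand, and the flanks went from 84.8% to 75.1%. On chromosome 13 at 25429001 to 25430000 it was 91.5% and 73.8%, with 12 sites lower by at least 30 points within a span of 224 bp and the flanks at 92.8% and 92.7%.

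The largest gains started just above the threshold, where the rule leaves the most room to gain. On chromosome 10 at 20211001 to 20212000 the site mean was 81.1% in the control and 94.1% with TGF-beta, and the summed level 79.9% (76.9 to 82.7, 771 calls) and 94.8% (93.7 to 95.8, 1850 calls). Its 10 sites that were higher by at least 30 points had medians of 53.1% and 95.2%. On chromosome 7 at 1302001 to 1303000 the site mean was 82.2% and 94.4%, and on chromosome 22 at 1276001 to 1277000 it was 80.2% and 92.2%. In both of these the flanks were higher too, at 73.4% in the control and 89.2% with TGF-beta on chromosome 7, and at 53.0% and 68.8% on chromosome 22. Around the window on chromosome 10 they were at 90.3% and 91.4%.

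Some of the members that differed by 10 points lay close together. The 72 called lower fell into 58 groups when those within 100 kb of each other were joined, and 5 groups held 19 of them. Members in general also lie close together, with 56.5% next to another member, and no like grouping of them is given for comparison. Of the 72, 40 had at least 10 sites covered on both strands, and in 38 of these the strands had the same sign. The group with the most, on chromosome 5 from 57822001 to 58003000, held 7 called members among 29, and 28 of the 29 were lower with TGF-beta. Their median was 87.3% in the control and 80.4% with TGF-beta, and the CpG-poorer windows of the same span went from 81.3% to 69.8%. On chromosome 10 from 21087001 to 21139000 all 18 members were lower, with medians of 93.8% and 87.6% against 93.3% and 84.0% in the CpG-poorer windows. On chromosome 2 from 80728001 to 80880000, 4 of 35 members were called and 25 were lower. On chromosome 34 from 35481001 to 35531000 all 7 members were higher, at medians of 84.0% and 93.4%, while the CpG-poorer windows were at 60.5% and 89.2%. These groups were chosen after their values were seen.

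Where domains differed by 2 points or more, the class medians of members went in the same direction as their surroundings, and were smaller. Classes were formed on the domain difference itself, which can widen that side, and a member can gain 20 points at most. Single members often went the other way. In domains lower by 2 to 5 points the members' quartiles were -2.86 and 0.511 points. In those higher by 2 to 5 points they were -0.299 and 2.45 points. In the 129 domains of 100 kb whose CpG-poorer windows were lower by 10 points or more, members had a median difference of -5.37 points (quartiles -7.36 and -3.01), at 89.5% and 85%. In domains that differed by less than 2 points the 24849 members had a median of 0.259 points. In the 266 domains higher by 10 points or more the 84 members had a median of 3.54 points (quartiles 2.00 and 6.09), at 84.8% and 89.6%. Windows chosen on the plus strand and compared on the minus strand gave -4.05, 0.236 and 4.45 points in these classes. Across members the difference and that of the domain had r = 0.35 over 31960 windows, and r = 0.23 on the minus strand over 33620. The 72 members called lower by 10 points lay in domains with a median difference of -0.938 points. For the 4 called lower by 20 points it was 0.464 points. The windows share libraries and neighbours, so these values are descriptions.

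**Figure D5:**
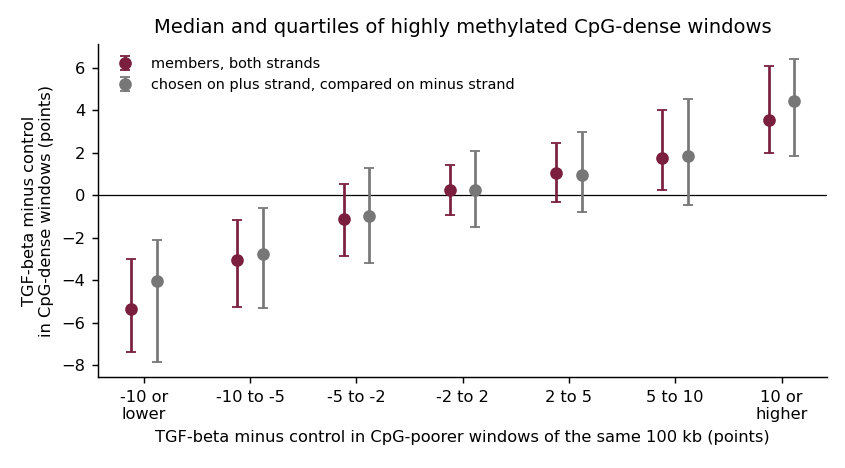
Median and quartiles of the difference, TGF-beta minus control, in highly methylated CpG-dense windows (vertical axis, percentage points), by the difference in CpG-poorer windows of the same 100 kb (horizontal axis, classes in points). The members' medians run from -5.37 points in the lowest class to 3.54 points in the highest, and windows chosen on the plus strand and compared on the minus strand follow the same order.

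The neighbours of called members were also read. Of the 72 called lower by 10 points, 71 had an adjacent window with at least 5 covered sites, and that window was under 50% in the control in 5 (7.04%), against 8.66% of all members with such a neighbour and 6 of the 20 members called higher. Their own flanks within 5 kb were at a median of 80.3% in the control and 74.4% with TGF-beta and were lower in 57 of 71. The 20 called higher had flanks at 73.7% and 88.3%, and 4 of 19 measured flanks were lower.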

How the data were processed

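Whole-genome bisulfite libraries of 2 MDCK cultures were compared, grouped by the labelled agent. The deposited values are counts of methylated and unmethylated calls per CpG cytosine, with strands on separate lines. Bismark and Bowtie 0.12.8 with canFam3 are named in the submitters' processing notes, while the labels' protocols name SOAPaligner2. Whether duplicates were removed is not stated there, and reads copied by PCR would make the intervals too narrow. The column of methylated calls was read from mitochondrial DNA, where it gave 0.211% (control) and 0.329% (TGF-beta).

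Positions p and p+1 were summed into 23477970 autosomal sites, 91.1% with both positions listed. Odd-numbered runs of adjacent positions, with 0.00688% of autosomal calls, were left out, as was 1 line per file without a chromosome. Levels are means of site levels, with summed levels where stated. Fisher's exact test was two-sided with Benjamini and Hochberg's adjustment, and was tested on simulated data. It compares 2 libraries, not conditions.

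Named windows were the 5 largest losses and 3 largest gains (20 or more covered sites, 200 or more calls per library, and on each strand 10 points lower for losses or 5 higher for gains). Further sets were the 5 densest members, the 5 longest stretches, the 5 largest steps to an adjacent unmethylated window, the 5 most regular spacings and the windows next to the threshold. Members, lists and tests were chosen with earlier results of these data known. Domains, nearest-CpG classes, density classes of all methylated windows, site profiles and groups of called members were added after the data were examined. Alternatives changed the call minimum, the site minimums, the threshold, the grid, the level, the choosing library or strand, the depth limit, the chromosomes and the call rule.

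Genome features and sequences of the windows were planned and are not analysed here, since no canFam3 genome was used. Software was Python 3.11.15, pandas 2.3.3, numba 0.67.0, numpy 2.4.6, matplotlib 3.10.9 and scipy 1.17.1.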

Additional observations from a re-analysis of the deposited data

How the results depend on the processing

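No paired analysis was possible because each group has 1 library, and for the same reason no replicate could be left out. The median difference of members stayed above 0 under each alternative run, between 0.197 and 0.543 points. A minimum of 20 covered sites and a Cochran-Mantel-Haenszel test with sites as strata moved no value. Values given here are those that left the main value's 95% interval (or 1.5 times a count), and the causes were not tested. For medians and shares these intervals were taken over windows or sites, and only for the ratio of calls over calls. They treat neighbouring windows and sites as independent, which they are not. Leaving an interval is therefore a rule for listing values and not a test. Members' share of CpG-dense windows was 38.8% with 3 calls per site, 41.8% with 10 calls, 38.8% with 50 listed sites, 40.8% by summed calls, 40.5% when chosen by the TGF-beta library, 48.6% when chosen on the plus strand, 38.8% without windows of high depth and 39% without chromosomes 3, 6, 7 and 25. A threshold of 75% gave 50.6% and one of 90% gave 20.0% (16135 members), and 50 listed sites left 20395 members. In the same settings the TGF-beta median was 90.7% with 10 calls, 90.1% with 50 listed sites, 90.8% by summed calls, 90.3% chosen by the TGF-beta library, 90.9% on the minus strand, 90.4% without the 4 chromosomes, 87.6% at the 75% and 94.2% at the 90% threshold. The median difference was 0.350 points by summed calls and 0.543 points when chosen by the TGF-beta library.

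Members called lower by 20 points were 0 with 50 listed sites or chosen by the TGF-beta library, 7 at the 75% threshold, 1 at the 90% threshold, 2 with choice and size by summed calls and 1 with size alone by summed calls. Members called higher were 28 when chosen by the TGF-beta library, 10 on the minus strand (with 6 called lower there) and 1 with size by summed calls. With 10 points, 72 members were called lower and 20 higher. Changes of the listed sites, the threshold or the choosing library keep the main call rule, under which 0.591% of all windows were lower and 1.1% higher. For the minus strand and for size by summed calls, shares over all windows at 20 points are not given. A window chosen by the TGF-beta library is at or above the threshold there, with almost no room to be 20 points lower. The 0 lower under that choice was thus set almost entirely by the rule. The same choice let in windows that were under the threshold in the control, which leaves room for the 28 higher. Neither count therefore shows a direction of change. The share of members under the threshold in the TGF-beta library was 5.16% at 75%, 7.45% at 90% and 7.77% on the minus strand; it is 0 by construction when that library chooses, so no value is given.

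The ratio of calls was 2.24 with 3 calls, 2.19 with 10 calls, 2.26 with 50 listed sites, 2.24 and 2.22 at the 75% and 90% thresholds, 2.23 with the grid shifted by 500 bp and by summed calls, 2.24 chosen by the TGF-beta library, 2.15 on the minus strand, 2.31 without windows of high depth and 2.27 without the 4 chromosomes. The flank median was 82.0% with 10 calls and with the shifted grid, 80.3% with 50 listed sites, 77.1% and 89.4% at the thresholds, 81.4% chosen by the TGF-beta library, 83.3% chosen on the plus strand and 81.3% without the 4 chromosomes. The share of members in the last 3 Mb was 34.9% with 50 listed sites. The share next to another member was 51.3% with 50 listed sites, 59.2% at the 75% threshold, 54.6% chosen on the plus strand and 54.7% without windows of high depth. Member sites under 20% in the TGF-beta library made up 1.21% with 3 calls, 1.03% with 10 calls, 1.85% and 0.336% at the thresholds, 1.33% by summed calls, 1.12% chosen by the TGF-beta library, 0.994% on the minus strand, 1.13% without the 4 chromosomes and 0.986% with calls reduced to 10. Depth limits single windows most in the control, which had the fewer calls.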
